A study of Mus musculus with 4 samples.

Results

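The genes described here are 9 regulators and products of the adipo-lineage of marrow reticular cells, Adipoq, Pparg, Cebpa, Cebpb, Lpl, Lepr, Ebf1, Ebf3 and Foxc1, picked by their symbols out of 53703 genes in the count matrices. They were measured in 4 single-cell RNA libraries, made with the 10x Genomics droplet method, of metaphyseal femur and tibia cells depleted of lineage-positive, CD45+ and CD117+ cells. The 2 Lats2 iΔEC libraries come from mice on a C57BL/6 background in which floxed Lats2, a Hippo pathway kinase gene, was deleted through the tamoxifen-inducible, endothelium-restricted Cdh5-CreERT2 transgene. The 2 control libraries come from Cre-negative littermates, which the labels call untreated and which, by the methods of the study, received the same tamoxifen. All mice were analysed at 12 weeks. Reticular cells were thus not themselves the target of the deletion. The genes were read out in reticular-like, metaphyseal stromal-like and osteoblast-like cells, that is, barcodes with at least 1000 unique molecular identifiers (UMIs) and 800 genes that scored highest on a list of 6 markers, none of them one of the 9 genes.

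Marrow reticular cells surround sinusoids and supply CXCL12 and stem cell factor to hematopoietic stem cells. Those of the adipo-lineage, known as Adipo-CAR cells, express adiponectin and the leptin receptor and hold the adipogenic factors PPARγ and C/EBPα without storing fat. EBF1, EBF3 and FOXC1 are transcription factors that maintain their niche function and restrain bone formation or fat formation, whereas the Osteo-CAR cells of the metaphysis lean toward the osteoblast lineage.

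The 4 matrices held 69636600 and 78953446 UMIs for the mutants and 83453507 and 85899079 for the controls, and 5749 to 7649 barcodes were kept per library. Any 2 libraries shared 7 to 22 kept barcodes, at most 0.289% of the smaller one. Lats2 in endothelial-like cells stood at 92.3 and 97.0 CPM (counts scaled to the summed total of a library and cell group) in the mutants and at 132 and 122 CPM in the controls, a log2 fold change of -0.34 ± 0.069 (SE, by edgeR, adjusted p = 0.00149). Reticular-like cells numbered 501 and 632 in the mutant libraries and 1698 and 1646 in the controls, or 8.71% and 9.43% against 22.3% and 21.5% of kept barcodes. Metaphyseal stromal-like cells numbered 199 and 250 against 575 and 590, and osteoblast-like cells 161 and 203 against 774 and 812. The study describes the 2 libraries of a genotype as biological replicates, and how many animals went into each is not given in the labels. The p-values measure the spread between these libraries. Counts were summed per library and cell group and compared with edgeR's quasi-likelihood test over all genes past a filter, with p-values adjusted by the Benjamini-Hochberg method and a gene called at an adjusted p of at most 0.05. Levels are CPM of these sums. Because introns were counted, a level depends on gene length, and levels are compared within a gene only.

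Each gene was first placed across 9 marker-gated cell types of the control libraries (mean ± SD, n = 2). Adipoq, the gene of the hormone adiponectin, reached 1278 ± 8.49 CPM in reticular-like cells, 53.6 ± 7.92 CPM in metaphyseal stromal-like cells and 28.4 ± 2.503 CPM in leukocyte-like cells, and 9.11 to 23.6 CPM elsewhere. Lepr, the leptin receptor, followed the same order at the top, with 1956 ± 32.1 CPM in reticular-like and 261 ± 17.6 CPM in metaphyseal stromal-like cells, then 87.7 ± 4.34 CPM in endothelial-like and 75.2 ± 2.53 CPM in fibroblast-like cells and 15.95 to 42.5 CPM elsewhere. Lpl, the lipoprotein lipase that frees fatty acids from circulating triglycerides, was at 2024 ± 10.1 CPM in reticular-like cells and at 384 ± 51.6 CPM in mural-like cells, and between 13.2 and 89.5 CPM in the other 7 types. All 3 genes thus had their highest control level in reticular-like cells.

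The transcription factors were less restricted. Pparg, the nuclear receptor that drives fat cell formation, was highest in endothelial-like cells at 478 ± 1.06 CPM, with reticular-like cells at 306 ± 0.819 CPM and mural-like cells at 283 ± 15.5 CPM. Cebpa, its partner in adipogenesis, stood at 161 ± 3.74 CPM in reticular-like and 137 ± 11.5 CPM in leukocyte-like cells. Cebpb, an early and inducible member of that family, was highest in leukocyte-like cells at 283 ± 26.1 CPM. Its levels in fibroblast-like (147 ± 17.0 CPM), mural-like (128 ± 20.01 CPM), metaphyseal stromal-like (124 ± 4.36 CPM) and reticular-like cells (105 ± 8.98 CPM) lay close to their neighbours relative to the spread. Ebf1 declined from 3258 ± 22.3 CPM in reticular-like cells through 2269 ± 19.9 CPM in mural-like, 1813 ± 99.6 CPM in metaphyseal stromal-like and 1214 ± 99.7 CPM in endothelial-like cells. Ebf3 fell off faster, from 2844 ± 8.84 CPM in reticular-like to 448 ± 31.1 CPM in metaphyseal stromal-like cells, with endothelial-like (177 ± 3.95 CPM) and mural-like cells (171 ± 9.39 CPM) not distinct from each other. Foxc1 stood at 386 ± 5.66 CPM in reticular-like, 200 ± 0.446 CPM in metaphyseal stromal-like, 103 ± 4.85 CPM in mural-like and 99.3 ± 3.15 CPM in chondrocyte-like cells, of which the last pair overlapped in spread. These levels are a description, since the gates use genes that mark the same cells.

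**Figure D1:**
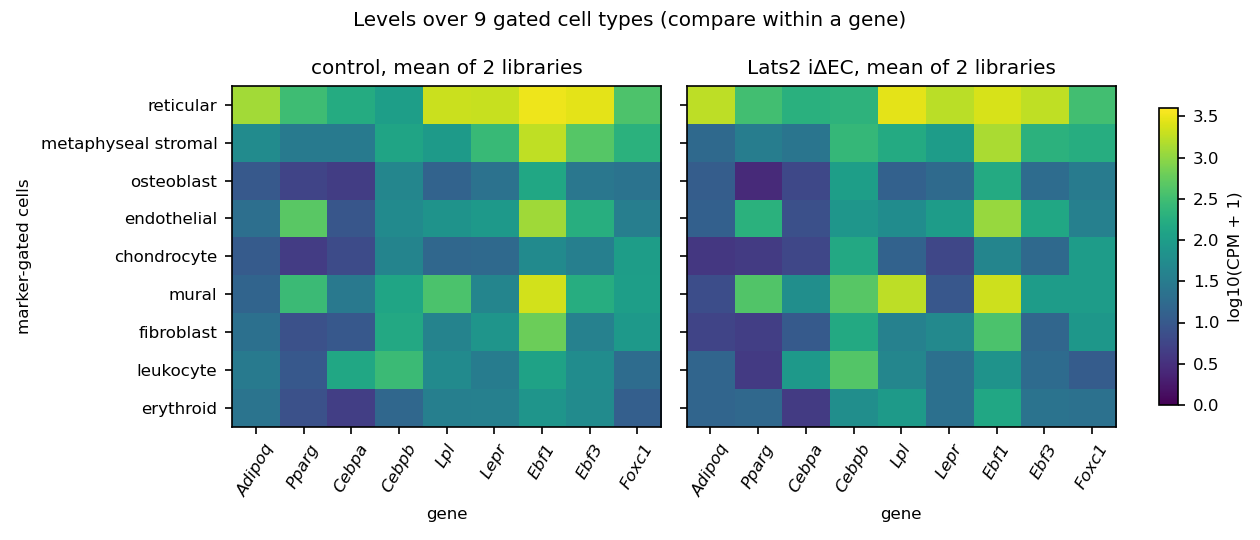
Heat maps of the mean level of each of the 9 genes (columns) in 9 marker-gated cell types (rows), as log10(CPM + 1), for the 2 control libraries on the left and the 2 Lats2 iΔEC libraries on the right. In the controls 7 of the 9 genes peak in reticular-like cells, while Pparg peaks in endothelial-like and Cebpb in leukocyte-like cells.

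All 9 genes lie in protein-coding loci on GRCm39 (GENCODE annotation): Adipoq on chromosome 16 (22964106 to 22976810), Pparg on 6 (115337675 to 115468268), Cebpa on 7 (34818718 to 34821353), Cebpb on 2 (167530835 to 167532338), Lpl on 8 (69284603 to 69360100), Lepr on 4 (101574601 to 101676237), Ebf1 on 11 (44508138 to 44898918), Ebf3 on 7 (136795402 to 136916218, minus strand) and Foxc1 on 13 (31990616 to 31996459). Only Foxc1 overlaps another annotated gene on its own strand, the long non-coding RNA Gm11379, so its counts are uncertain to that extent. The 250 bases before the start sites were searched in RefSeq promoters (GRCm38.p6), which held 12 starts of 8 of the genes, for a C/EBP motif (TTGCNNAA), an EBF motif (CCCNNGGG), a forkhead motif (GTAAACA) and a nuclear receptor motif (AGGTCA), on both strands. No window held matches of more than 1 of these motifs. Of 32851 promoters of the same length, 9.56% held the C/EBP motif, 11.8% the EBF motif, 3.17% the forkhead motif and 14.0% the nuclear receptor motif. These sequences are shown because they belong to the hormone gene that rose in mutant reticular-like cells, to the Pparg start with C/EBP motifs and to the Ebf gene that fell most. The Adipoq window (chr16:23146286-23146535, plus strand) held none of the 4 motifs, the window of the third Pparg start (chr6:115421816-115422065, plus strand) held the C/EBP motif at 215 and 16 bases before the start, and that of Ebf3 (chr7:137314446-137314695, minus strand) held the EBF motif 21 bases before the start. Motifs are in capitals.
Adipoq: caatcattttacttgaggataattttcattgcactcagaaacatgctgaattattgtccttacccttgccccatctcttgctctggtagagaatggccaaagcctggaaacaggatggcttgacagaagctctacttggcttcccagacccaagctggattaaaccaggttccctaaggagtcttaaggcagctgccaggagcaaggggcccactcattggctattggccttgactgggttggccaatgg
Pparg start 3: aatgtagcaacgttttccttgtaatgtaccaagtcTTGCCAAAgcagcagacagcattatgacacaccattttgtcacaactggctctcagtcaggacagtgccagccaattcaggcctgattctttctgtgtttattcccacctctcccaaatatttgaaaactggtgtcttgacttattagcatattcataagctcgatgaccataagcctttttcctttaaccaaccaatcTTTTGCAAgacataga
Ebf3: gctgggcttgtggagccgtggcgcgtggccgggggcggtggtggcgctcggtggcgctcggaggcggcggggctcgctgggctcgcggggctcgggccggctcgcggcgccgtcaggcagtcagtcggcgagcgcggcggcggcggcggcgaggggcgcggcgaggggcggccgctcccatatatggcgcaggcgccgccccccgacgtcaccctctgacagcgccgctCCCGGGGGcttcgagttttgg

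In reticular-like cells the genes did not move as a block. Adiponectin, the lipase and both C/EBP genes rose in Lats2 iΔEC mutants, Pparg did not pass the test, and Ebf1 and Ebf3 fell. Lepr and Foxc1 were also called lower, but those calls were lost in several settings given below. Of 9 genes tested 8 were called, 4 higher and 4 lower. The share of all 5057 genes called in these cells was itself 42.2%, with 21.9% higher and 20.3% lower, so a call alone says little here and the sizes are given. The median log2 fold change of the 9 genes was 0.12, against -0.004 over all genes tested.

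Among the secreted products, Adipoq stood at 1737 and 1760 CPM in the mutants and at 1272 and 1284 CPM in the controls. The libraries did not overlap, and the log2 fold change was 0.51 ± 0.045 (SE, by edgeR, adjusted p = 1.29e-05). Lpl rose by a similar ratio, from 2031 and 2017 CPM in the controls to 2865 and 2880 CPM in the mutants (log2 fold change 0.56 ± 0.044, edgeR, adjusted p = 5.39e-06). Both kept this call in each of 16 alternative settings.

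Of the adipogenic factors, Cebpb changed most. It stood at 227 and 199 CPM in the mutants and 111 and 98.2 CPM in the controls, a log2 fold change of 1.08 ± 0.079 (edgeR, adjusted p = 3.49e-06). Cebpa was at 184 and 195 CPM against 163 and 158 CPM, a smaller rise without overlap (0.30 ± 0.059, edgeR, adjusted p = 0.00255). Its call was lost without the gene filter (adjusted p = 0.106) and in thinned cells (adjusted p = 0.0834, both edgeR). Pparg, in contrast, was at 310 and 331 CPM against 306 and 307 CPM, and its log2 fold change of 0.12 ± 0.059 did not pass the test (edgeR, adjusted p = 0.118).

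Lepr was at 1623 and 1701 CPM in the mutants and at 1979 and 1933 CPM in the controls, with a log2 fold change of -0.18 ± 0.047 (edgeR, adjusted p = 0.0112). Ebf1 was at 2368 and 2500 CPM against 3274 and 3243 CPM (log2 fold change -0.36 ± 0.047, edgeR, adjusted p = 1.41e-04). Ebf3 fell furthest, from 2838 and 2851 CPM in the controls to 1738 and 1855 CPM in the mutants (-0.61 ± 0.048, edgeR, adjusted p = 5.39e-06). Foxc1 was at 296 and 345 CPM against 390 and 382 CPM (-0.21 ± 0.071, edgeR, adjusted p = 0.0333). The mutant libraries lay below both controls for all 4 genes, but the calls of Lepr and Foxc1 were lost when control 1 was left out (adjusted p = 0.16 and 0.124) or control 2 (adjusted p = 0.0948 and 0.083), and that of Foxc1 also without mutant 1 (adjusted p = 0.199, edgeR throughout). In such fits the lone library of a genotype is assumed to vary like the pair of the other. Over 16 alternatives Foxc1 lost its call in 9, among them DESeq2 (adjusted p = 0.0542) and thinned cells (-0.10, edgeR, adjusted p = 0.241), with a smallest change of -0.087 when clusters replaced the gate.

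**Figure D2:**
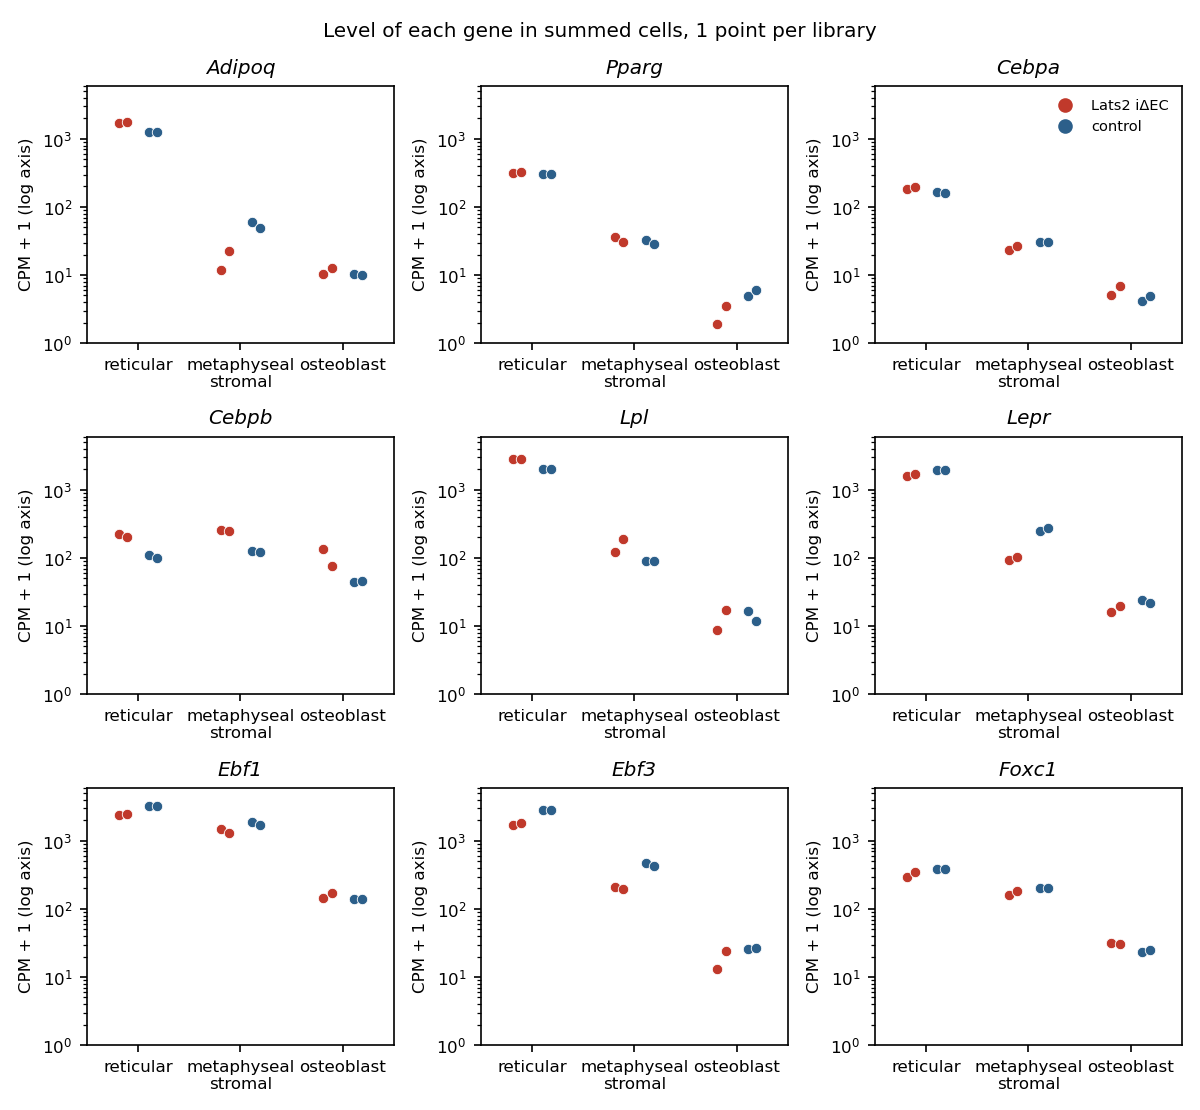
Level of each gene (CPM + 1, log axis) in the summed reticular-like, metaphyseal stromal-like and osteoblast-like cells, with 1 point per library, Lats2 iΔEC in red and control in blue. Adipoq lies higher in mutant than in control reticular-like cells and lower in mutant than in control metaphyseal stromal-like cells, while Cebpb lies higher in the mutants in all 3 groups.

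The gate did not hold quite the same cells in both genotypes. Its own 6 markers summed to 28380 and 29320 CPM in the mutants and 32430 and 32350 CPM in the controls. Kitl (-0.18) and Gas6 (-0.13) were called lower and Esm1 (0.26) higher (edgeR, adjusted p = 0.00926, 0.0431 and 0.00129). With matched clusters Kitl (-0.04) and Gas6 (-0.01) were not called (edgeR, adjusted p = 0.512 and 0.884). The part of these markers in the changes was not tested. Clustering without the 9 genes (Leiden) placed 94.3% and 94.6% of the control reticular-like cells in cluster 16, but 80.0% and 81.0% of the mutant ones. A further 69 and 78 mutant cells, 13.8% and 12.3% of the gate, fell in cluster 2, which held 3 and 0 control reticular-like cells. The genes leading cluster 2 by fold over other mutant barcodes were Mmp9, a gelatinase, 4833422C13Rik, Col25a1, Ctsc and Megf10, with Tnc and Tnfsf11, the RANKL gene, also among its first 10. Its reticular-gated mutant cells held 2356 and 3007 CPM of Cxcl12, against 21740 and 21720 CPM in the mutant cells of cluster 16.

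Within cluster 16 the picture differed for Lepr. It stood at 1985 and 2010 CPM in mutant and at 2050 and 2007 CPM in control cells, while the mutant cells of cluster 2 held 92.6 and 132 CPM. Adipoq was at 2112 and 2000 CPM in mutant against 1305 and 1317 CPM in control cells of cluster 16, and at 345 and 497 CPM in cluster 2. Ebf3 remained lower in mutant cells of cluster 16, at 2068 and 2107 CPM against 2939 and 2963 CPM, and was at 493 and 657 CPM in cluster 2. Lpl was high in both clusters of the mutants, with 3104 and 2937 CPM in cluster 16 and 2525 and 2653 CPM in cluster 2.

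A fit restricted to cells whose gate and cluster matched, added after the data were seen, called 6 of the 9 genes, with 37.0% of all 5012 genes called. The log2 fold change of Lepr became 0.02 (edgeR, adjusted p = 0.799) and that of Foxc1 -0.10 (edgeR, adjusted p = 0.171). Adipoq rose to 0.68 (edgeR, adjusted p = 1.77e-09), and Ebf3 and Ebf1 stayed called at -0.46 and -0.29 (edgeR, adjusted p = 1.82e-07 and 4.64e-05). The matched cells were those of cluster 16 and of smaller reticular clusters. Lower Lepr was not measured in them, whereas lower Ebf1 and Ebf3 and higher Adipoq, Cebpa, Cebpb and Lpl were. This restriction cannot show where Lepr fell. Cluster 16 was high in Cxcl12, whose level went most closely with that of Lepr over the cell types (Pearson r = 0.976). Choosing cluster 16 may thus choose cells high in Lepr.

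**Figure D3:**
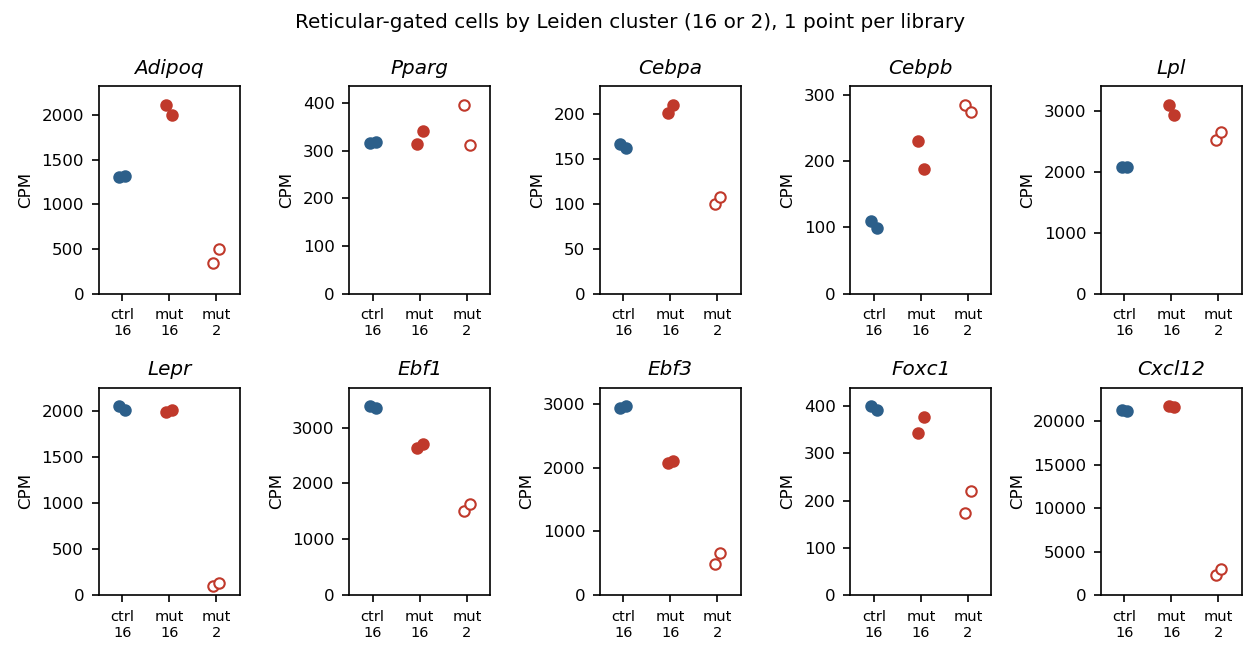
CPM of the 9 genes and of Cxcl12 in reticular-gated cells of Leiden cluster 16 (control in blue, mutant in filled red) and of cluster 2 (mutant in open red), with 1 point per library; control cells of cluster 2 were too few to plot. Lepr and Cxcl12 are level between genotypes in cluster 16 and low in cluster 2, whereas Adipoq in cluster 16 is higher and Ebf3 lower in the mutants.

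Adipoq and Lepr were also counted cell by cell, over the whole gate and not by cluster. After each cell was thinned to 2000 UMIs, 81.5% (95% exact binomial interval 77.7% to 84.8%) and 82.3% (79.0% to 85.3%) of mutant and 80.5% and 80.6% of control reticular-like cells had an Adipoq UMI. A Lepr UMI was found in 82.3% and 82.2% of mutant and 94.8% and 93.6% of control cells. Osteoblast-like cells, which held the least Lepr of the 3 groups, gave 2.53% and 2.51% against 3.78% and 3.49% at the same depth. In the controls, those of cluster 12 held 12.1 and 9.71 CPM of Lepr and those of cluster 13 188 and 132 CPM. The latter also held 111 and 83.7 CPM of Adipoq, and whether they are doublets was not tested. Median depths before thinning were 10100 to 16510 UMIs in osteoblast-like cells against 5628 to 6126 UMIs in reticular-like cells. Intervals cover counting error only.

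Both genes were found together in 74.2% and 73.6% of mutant and 76.5% and 75.7% of control reticular-like cells. Cells with Lepr alone were fewer in the mutants, at 8.13% and 8.58% against 18.3% and 17.9%. Cells with neither gene made up 10.4% and 9.09% of the mutant and 1.21% and 1.44% of the control gate. Cells with Adipoq alone made up 7.29% and 8.75% against 3.99% and 4.94%. Each of the 4 classes separated the genotypes without overlap, the first by the narrowest gap, while 2 libraries of each allow no test of a single share under p = 0.333 (exact permutation test, two-sided).

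**Figure D4:**
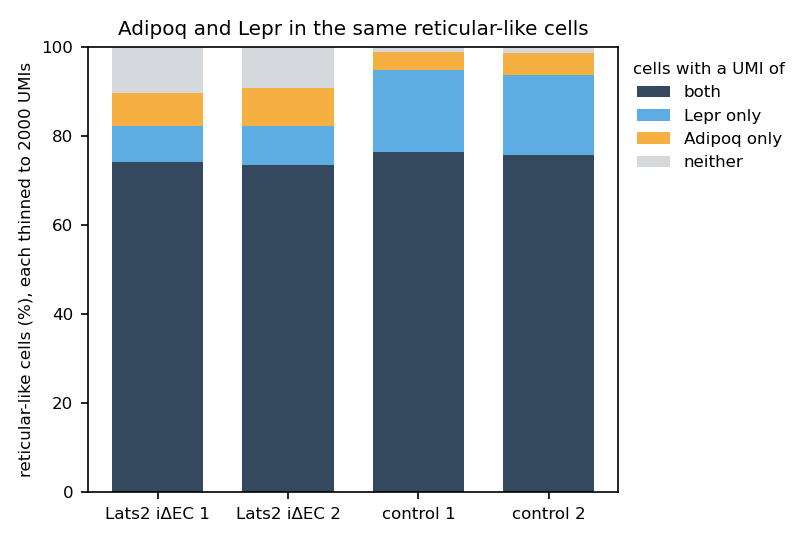
Stacked bars of the share of reticular-like cells, in percent and after thinning to 2000 UMIs, with a UMI of both Adipoq and Lepr, of Lepr only, of Adipoq only or of neither, 1 bar per library. The class with neither gene takes 10.4% and 9.09% in the mutants and 1.21% and 1.44% in the controls.

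Cells with a UMI of Cbln1, a cerebellin gene, made up 27.7% to 29.5% of the gate in the 4 libraries. In them Adipoq was at 2122 and 2131 CPM in the mutants and 1318 and 1307 CPM in the controls, while Lepr was at 2005 and 1953 CPM against 1915 and 1963 CPM. In cells without a Cbln1 UMI Adipoq was at 1570 and 1590 CPM against 1252 and 1275 CPM, and Lepr at 1458 and 1586 CPM against 2008 and 1921 CPM. Higher Adipoq was thus measured in both subsets, and lower Lepr in the cells without a Cbln1 UMI.

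Metaphyseal stromal-like cells were gated on markers meant for the Osteo-CAR cells of the metaphysis. Over the whole gate Lepr and Ebf3 were lower and Cebpb and Lpl higher in the mutants, but Lpl was not called with matched clusters. Only 68 of 199 and 93 of 250 mutant cells lay in a metaphyseal stromal cluster, against 508 of 575 and 529 of 590 control cells. The name thus describes the gate and not the identity of its mutant cells. The metaphyseal stromal clusters were cluster 3, with 59 and 78 mutant and 507 and 524 control cells of the gate, and cluster 30. Cluster 30 held 25 and 31 mutant and 4 and 5 control barcodes, gated or not. Matched clusters in this group therefore still differed in makeup between the genotypes. Of the 9 genes 6 passed the gene filter and 5 were called, 2 higher and 3 lower, where 29.6% of all 5711 genes were called (15.6% higher, 14.0% lower). The median of the 6 was -0.22 on the log2 scale, against -0.005 over all genes tested. Adipoq, Pparg and Cebpa were below the filter. Different clusters held most of these cells: 55.8% and 50.4% of the mutant cells were in cluster 2 and 29.6% and 31.2% in cluster 3, against 7.65% and 6.27% and 88.2% and 88.8% of the control cells. Of the 6 markers of the gate itself, 5 fell and 1, Postn, rose in the mutants. Markers of other cell types moved with the gate. The 6 mural markers summed to 333 and 380 CPM in the mutants and 133 and 134 CPM in the controls, most of the rise in Ndufa4l2 (205 ± 35.1 against 19.9 ± 2.47 CPM), the 5 fibroblast markers to 62.1 and 58.8 against 4.08 and 11.5 CPM and the 5 erythroid markers to 578 and 678 against 202 and 232 CPM, with no marker of these lists at 0. Other summed levels fell: the 6 reticular markers summed to 1861 and 2190 against 4110 and 3773 CPM. Of them 4 were called lower, led by Hp (-1.29) and Cxcl12 (-1.19), and 1, Esm1 (0.52), higher (edgeR, adjusted p = 5.61e-09, 6.71e-09 and 0.00557). With matched clusters Hp (-0.29) and Esm1 (-0.47) were not called (edgeR, adjusted p = 0.186 and 0.275). Among osteoblast markers Bglap (-2.04), Bglap2 (-1.82) and Car3 (-1.75) fell and Ibsp (0.78) rose (edgeR, adjusted p = 1.67e-13, 4.00e-11, 3.36e-10 and 1.74e-04). Cells that also scored on a second marker list were 26.6% and 30.8% of the mutant and 60.35% and 61.7% of the control cells. Within cluster 3 Ndufa4l2 was at 13.5 and 20.5 CPM against 8.81 and 13.7 CPM. The part of these markers in the changes below was not tested, and mural-like cells of the mutants were themselves high in Lpl.

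Lepr was at 93.3 and 103 CPM in the mutants and 249 and 274 CPM in the controls, a log2 fold change of -1.34 ± 0.10 (edgeR, adjusted p = 1.82e-09). Within cluster 3 it was at 179 and 214 CPM against 259 and 294 CPM, and over cells whose gate and cluster matched the change was -0.63 (edgeR, adjusted p = 0.00416). With clusters in place of the gate it was -0.40 (edgeR, adjusted p = 0.0272), the smallest of 16 alternatives. Ebf3 was at 209 and 196 CPM against 470 and 426 CPM (-1.08 ± 0.093, edgeR, adjusted p = 1.08e-08), or -0.66 with matched clusters (edgeR, adjusted p = 7.58e-04). Within cluster 2, which held most of the mutant cells, the genes parted: Lepr was lower in the mutants (61.9 and 63.9 against 173 and 142 CPM) and Ebf3 was higher (193 and 167 against 141 and 90.1 CPM), with no test within a cluster.

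Cebpb was at 252 and 251 CPM in the mutants against 127 and 120 CPM (log2 fold change 1.09 ± 0.087, edgeR, adjusted p = 3.31e-09), and at 1.38 with matched clusters (edgeR, adjusted p = 1.90e-06). Lpl was at 121 and 189 CPM against 88.4 and 90.6 CPM (0.89 ± 0.13, edgeR, adjusted p = 1.95e-05), but its change was 0.50 without mutant 2 and 0.11 with matched clusters (edgeR, adjusted p = 0.686). Ebf1 was at 1504 and 1307 CPM against 1884 and 1743 CPM (-0.30 ± 0.082, edgeR, adjusted p = 0.00831), and its call was lost with matched clusters (-0.07, edgeR, adjusted p = 0.702), without mutant 2 (adjusted p = 0.0895) and without control 1 (adjusted p = 0.143). Within cluster 2 it was higher in the mutants (1509 and 1434 against 1003 and 1068 CPM), with no overlap and no test. Foxc1, at 160 and 183 CPM against 200.2 and 199.6 CPM, did not pass the test (-0.15 ± 0.093, edgeR, adjusted p = 0.252). Matched clusters called 3 of the 6 genes, with 8.50% of all 5859 genes called.

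Of the genes below the filter, Adipoq was at 10.9 and 21.7 CPM in the mutants and 59.2 and 48.0 CPM in the controls, without overlap, and a fit without the filter gave -1.69 ± 0.22 (edgeR, adjusted p = 1.15e-05). Free RNA, estimated from droplets with 10 to 100 UMIs, could supply at most 15.2% of these Adipoq counts in any library, and at most 2.35% of all counts of these cells. Pparg was at 35.3 and 29.4 CPM against 31.8 and 27.9 CPM and overlapped. Cebpa was at 22.4 and 25.8 CPM against 29.4 and 29.1 CPM, with a log2 fold change of -0.30 ± 0.18 in the unfiltered fit (edgeR, adjusted p = 0.444).

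The difference between both genotype effects was tested as an interaction, with the library as a block, over 6103 genes of which 10.5% were called. Of the 9 genes 3 were called, each with a more positive effect in reticular-like than in metaphyseal stromal-like cells, the direction of 5.59% of all genes, with 4.92% in the other. Adipoq, Pparg and Cebpa entered this fit through reticular-like cells alone, being below the filter in metaphyseal stromal-like cells. The Adipoq difference of 2.10 ± 0.21 on the log2 scale (edgeR, adjusted p = 1.51e-04) is therefore given as a description. Adipoq rose in reticular-like cells. It was lower, within 10.9 to 59.2 CPM, in metaphyseal stromal-like cells, where the summed reticular markers also fell. The part of that fall was not tested, and the interaction was not fitted without cells on a second list. For Lepr the difference was 1.15 ± 0.096 (edgeR, adjusted p = 5.39e-05) and for Ebf3 0.47 ± 0.089 (edgeR, adjusted p = 0.00655). With matched clusters, where 3.43% of 6231 genes were called, Lepr was called (0.65, edgeR, adjusted p = 0.0144) and Ebf3 was not (0.20, edgeR, adjusted p = 0.426). Because matched clusters may choose reticular-like cells high in Lepr, this refit lends no weight to the Lepr difference. The Adipoq value there (2.10, edgeR, adjusted p = 5.14e-04) is again a description. Cebpa (0.49 ± 0.15) missed the threshold (edgeR, adjusted p = 0.072). The differences of Pparg (-0.05 ± 0.16), Cebpb (-0.02 ± 0.10), Lpl (-0.31 ± 0.16), Ebf1 (-0.07 ± 0.089) and Foxc1 (-0.07 ± 0.094) did not pass the test, with adjusted p-values from 0.273 to 0.931 (edgeR).

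**Figure D5:**
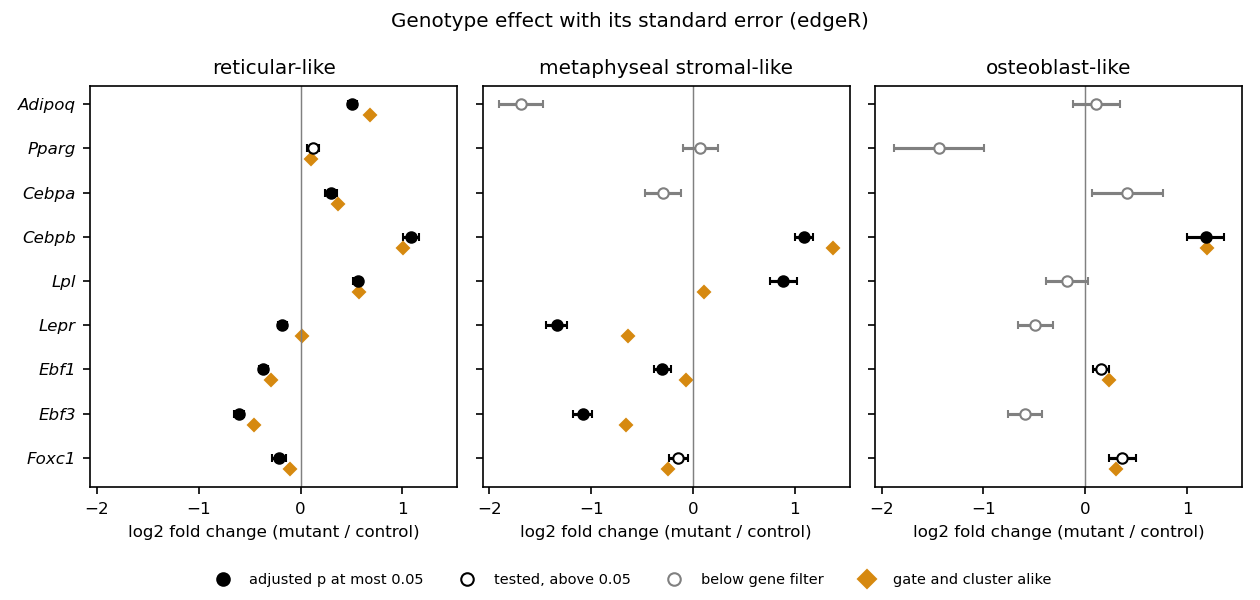
Log2 fold change of mutant over control for the 9 genes in each cell group, with the standard error as bars; filled black points were called, open black points were not, grey points are from the fit without the gene filter, and orange diamonds are from cells whose gate and cluster matched. The diamond of Lepr moves to 0.02 in reticular-like cells and to -0.63 in metaphyseal stromal-like cells.

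Osteoblast-like cells held little of the adipo-lineage genes. Only Cebpb, Ebf1 and Foxc1 passed the filter, and 1 of these 3 was called, where 13.1% of 5913 genes were called and 8.86% were higher and 4.23% lower in the mutants. Cebpb was at 135 and 74.4 CPM in the mutants and at 43.6 and 44.9 CPM in the controls (log2 fold change 1.18 ± 0.18, edgeR, adjusted p = 3.76e-04), with the mutant libraries apart from each other. The change was 0.70 without mutant 1 and 1.62 without mutant 2. By DESeq2 it missed the threshold (adjusted p = 0.0678). Other values moved with this gate, and their part was not tested. Of its own 6 markers 4 were called lower and 1, Ibsp, higher. The 6 mural markers summed to 158 and 202 CPM in the mutants against 53.5 and 46.4 CPM, and the 5 erythroid markers to 440 and 584 against 144 and 206 CPM, with none at 0. Of the chondrocyte markers Acan (1.29) and Sox9 (1.11) were called higher (edgeR, adjusted p = 3.89e-06 and 3.09e-04), while the summed levels overlapped (1254 and 2500 against 1505 and 1183 CPM). The median mitochondrial share was 5.61% in both mutant libraries and 4.12% and 4.11% in the controls. Ebf1 (144 and 170 CPM against 141 and 137 CPM; 0.15 ± 0.078) and Foxc1 (30.5 and 29.7 CPM against 22.0 and 23.7 CPM; 0.37 ± 0.13) did not pass the test (edgeR, adjusted p = 0.235 and 0.0897). The other 6 genes stood between 0.923 and 25.9 CPM, where free RNA could supply up to 50.4% of the counts of a gene in a library. In the unfiltered fit Ebf3 (12.0 and 23.4 CPM against 24.8 and 25.9 CPM) and Pparg (0.923 and 2.45 CPM against 3.91 and 4.97 CPM) were lower in the mutants (edgeR, adjusted p = 0.00933 and 0.0236), and Adipoq, Cebpa, Lpl and Lepr did not pass (edgeR, adjusted p from 0.0686 to 0.85). Within cluster 12, which held most of these cells, Ebf3 (4.42 and 12.4 against 5.6 and 6.68 CPM) and Pparg (0.552 and 1.66 against 1.53 and 1.18 CPM) overlapped. In cluster 13, with 13 and 21 mutant cells, Ebf3 was at 80.3 and 137 against 282 and 244 CPM and Pparg at 6.18 and 11.4 against 34.6 and 27.3 CPM.

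The genes also changed outside the 3 groups, in fits added after the data were seen. Pparg in endothelial-like cells, the cells in which Lats2 was deleted, was at 188 and 205 CPM in the mutants and 479 and 477 CPM in the controls, a log2 fold change of -1.21 ± 0.070 (edgeR, adjusted p = 3.29e-07). The share of all genes called there was 60.3%. The endothelial clusters were also unevenly filled, with 139 and 184 mutant against 85 and 84 control cells in cluster 22 and 62 and 71 against 218 and 228 in cluster 26, and the part of this in the change of Pparg was not tested. In mural-like cells Lpl was at 1528 and 1914 CPM against 347 and 420 CPM (2.19 ± 0.11, edgeR, adjusted p = 7.37e-10), with Pparg, Cebpa and Cebpb also higher (0.60, 1.17 and 1.87, edgeR, adjusted p = 1.97e-05, 2.42e-04 and 1.40e-09) and 47.7% of all genes called. Ebf3 was lower there, at 81.6 and 111 CPM against 178 and 165 CPM (-0.79, edgeR, adjusted p = 1.02e-04), and it was lower too in endothelial-like (-0.27, edgeR, adjusted p = 0.00621) and chondrocyte-like cells (-0.99, edgeR, adjusted p = 1.93e-05). The chondrocyte-like gate held other clusters in the mutants, since 983 of 1515 and 1020 of 1623 mutant but 1162 of 1236 and 1158 of 1250 control cells lay in chondrocyte clusters. Lepr was higher in endothelial-like cells (0.21, edgeR, adjusted p = 0.0295), and in fibroblast-like cells Lepr (-0.57) and Ebf1 (-0.64) were lower (edgeR, adjusted p = 0.0171 and 0.00335). For chondrocyte-like and fibroblast-like cells the share of all genes called was not computed. Whether calls in these cells, here and below, stand out is therefore not shown. Of the mural-like cells 221 and 268 mutant but only 3 and 5 control cells belonged to cluster 4, led by Tmem273, Doxl1 and Sorcs1, in which Lpl stood at 2697 and 3353 CPM. Adipoq in the same cluster stood at 5.28 and 6.37 CPM.

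Cebpb also stood higher in mutant chondrocyte-like cells, at 152 and 140.1 CPM against 41.7 and 41.7 CPM (log2 fold change 1.91, edgeR, adjusted p = 2.57e-10), with the difference in clusters given above, and in endothelial-like cells (0.63, edgeR, adjusted p = 5.45e-04). In fibroblast-like cells the libraries overlapped (167 and 137 CPM against 159 and 135 CPM). Droplets with 10 to 100 UMIs held 195 and 196 CPM of Cebpb in the mutants and 70.6 and 79.6 CPM in the controls. Immediate early genes, a list of 6 chosen after the data were seen, moved with it: all 5 tested in reticular-like cells were higher, with Fos at 1037 ± 92.9 against 402 ± 12.9 CPM (SD, n = 2), as were all 5 tested in metaphyseal stromal-like and all 6 in osteoblast-like cells. The shares of all genes called higher were 21.9%, 15.6% and 8.86% in the same order. With matched clusters Egr1 was no longer called in metaphyseal stromal-like cells (0.37, edgeR, adjusted p = 0.121). Their part in the change of Cebpb was not tested. Hemoglobin and other erythroid markers were also higher in mutant reticular-like cells (summed level of 5 markers 811 and 859 CPM against 382 and 515.5 CPM), with no marker at 0. The 5 chondrocyte markers summed to 657 and 384 CPM there against 294 and 302 CPM, and Col2a1 was called (373 ± 146 against 210 ± 3.25 CPM, log2 fold change 0.88, edgeR, adjusted p = 0.00308). The median mitochondrial share of reticular-like cells was 3.88% and 3.98% in the mutants and 2.99% and 3.12% in the controls. The part of these values in the changes was not tested. Free RNA was at most 3.07% of the counts of these cells and at most 2.48% of those of Cebpb.

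Among other adipogenic transcription regulators, 6 of 15 listed genes were tested in reticular-like cells, with 2 higher and 2 lower and a median log2 fold change of -0.09. Of all genes tested in these cells 21.9% were called higher and 20.3% lower, so the counts of this list and of the restraints are a description. Cebpd, which acts beside Cebpb early in fat cell formation, rose (402 ± 49.99 against 277 ± 7.37 CPM; 0.59), as did Ebf2 (0.29), whereas Stat5b (-0.31) and Zfp423, a preadipocyte factor (-0.27), fell. Of 12 restraints on adipogenesis 6 were tested, with 4 higher and 1 lower. Klf2 (1.04), Ddit3 (0.61) and Id3 (0.46) were among the higher ones. Activators and restraints both included genes that rose.

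Of 29 genes for lipid uptake, synthesis and storage 5 were tested in reticular-like cells, and 4 rose and 1 fell, where 21.9% of all genes were called higher and 20.3% lower. Fabp4, a fatty acid carrier, was at 158 ± 12.8 against 61.7 ± 7.31 CPM (log2 fold change 1.42), beside 8180 and 8624 CPM in mutant and 4850 and 5178 CPM in control endothelial-like cells and 1024 against 494 CPM in the droplets with 10 to 100 UMIs. Plin2, a lipid droplet coat protein, rose from 49.6 ± 1.91 to 77.6 ± 10.3 CPM (0.71). Angptl4, an inhibitor of lipoprotein lipase, rose from 331 ± 11.9 to 471 ± 12.5 CPM (0.56), and Apoe, a lipid carrier, from 4133 ± 44.5 to 5059 ± 56.8 CPM (0.35). Markers of mature fat cells were near 0: Cidec was at 0.192 to 0.310 CPM, Retn at 0 to 0.263 CPM and Lep had no count in any of the 4 libraries, and Plin1 at 4.65 and 2.89 CPM against 0.189 and 0.958 CPM. The 7 adipocyte markers together reached 163 and 176 CPM in the mutants and 63.1 and 73.5 CPM in the controls, most of it Fabp4, and the part of Fabp4 from other cells was not tested.

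In the leptin receptor pathway, 9 of 10 listed genes were tested in reticular-like cells, with 3 higher and 3 lower. Of all genes tested in these cells 21.9% were called higher and 20.3% lower, and the list is short, so such counts are a description. Jak2, the kinase bound to the receptor, fell (80.6 ± 2.95 against 128 ± 0.0655 CPM; -0.61), as did the phosphatase Ptpn1 (-0.44), and Irs2 (1.40) and the feedback inhibitor Socs3 (0.35) rose. In metaphyseal stromal-like cells, where Lepr fell, 4 were higher and 2 lower, led by Socs3 (324 ± 0.160 against 116 ± 6.94 CPM, log2 fold change 1.55). Of all genes there 15.6% were called higher and 14.0% lower. With matched clusters, where 8.50% of all genes were called, Socs3 alone was called (1.37, edgeR, adjusted p = 2.08e-06). Socs3 was likewise higher in osteoblast-like cells (2.06), which held 15 to 22.9 CPM of Lepr, and in the droplets with 10 to 100 UMIs (435 against 176 CPM). Of 10 adipokines and their receptors 5 were tested in reticular-like cells and only Rarres2, the chemerin gene, was called (0.15). With matched clusters, where 37.0% of all genes were called in reticular-like cells, 2 of these 5 were called higher, Rarres2 at 0.30 (edgeR, adjusted p = 1.53e-04). The reticular counts then became 3 higher and 1 lower for the restraints and 3 and 2 for the leptin receptor pathway. They were 1 and 4 for the osteogenic regulators described next, with the adipogenic and lipid counts as before. The genes named from these lists were called by edgeR with an adjusted p of at most 0.05 and without overlap between libraries.

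Among osteogenic regulators more fell than rose in reticular-like and metaphyseal stromal-like cells, and as many fell as rose in osteoblast-like cells. In reticular-like cells, where 21.9% of all genes were called higher and 20.3% lower, 8 of 15 were tested, with 2 higher and 4 lower. Among these Runx2 (1282 ± 30.4 against 1929 ± 57.0 CPM, log2 fold change -0.53) and Runx1 (-0.39) fell and Atf4 (0.39) rose. Osteoblast markers were also lower, at a summed level of 2332 and 2396 against 3443 and 3369 CPM and with Bglap (-1.10), Bglap2 (-0.98) and Ibsp (-0.44) called, as was the metaphyseal stromal marker Wif1 (-0.73, edgeR, adjusted p = 2.98e-05, 3.67e-05, 3.25e-05 and 3.93e-04), while Phex rose (0.36, edgeR, adjusted p = 9.98e-04). Their part was not tested. In metaphyseal stromal-like cells, where 14.0% of all genes were called lower and 15.6% higher, 6 of 9 tested fell and 2 rose, and the falls included Sp7 (-1.08), Runx2 (-0.70) and Alpl (-0.63). With matched clusters, where 8.50% of all genes were called, 6 fell and 1 rose, at -0.89 for Sp7, -0.45 for Runx2 and -0.35 for Alpl (edgeR, adjusted p = 0.00147, 0.00502 and 0.0283). The osteoblast markers Bglap (-1.33), Bglap2 (-1.02) and Car3 (-0.84) were still lower there and Ibsp (0.62) higher (edgeR, adjusted p = 4.78e-07, 1.00e-05, 5.54e-04 and 0.0185), and their part in these falls was not tested. In osteoblast-like cells 11 were tested, with 2 higher, Runx1 (0.63) and Alpl (0.51), and 2 lower, among them Prrx1 (-0.50). The other lists counted 2 higher and 1 lower of 6 adipogenic regulators, 2 higher of 6 restraints, 1 higher and 2 lower of 9 lipid genes and 1 higher and 1 lower of 5 adipokine genes in metaphyseal stromal-like cells, led by Klf4 (1.48), Klf2 (1.09), Apoe (-0.98) and Agt (-1.01). With matched clusters Klf4 (0.59) and Agt (-0.26) were no longer called (edgeR, adjusted p = 0.0542 and 0.266), and Klf2 (0.75) and Apoe (-0.59) were (edgeR, adjusted p = 0.00737 and 6.24e-04). These 4 lists then counted 1, 2, 1 and 0 higher and 0, 0, 1 and 0 lower. In osteoblast-like cells they counted 2 higher of 5, 4 higher of 6, 1 lower of 10 and none of 3, led by Cebpd (1.46), Ddit3 (0.81) and Scd1 (-0.52), where 8.86% of all genes were called higher and 4.23% lower. With matched clusters, where 11.4% were called, the restraints counted 3 higher and the lipid genes 1 higher and 1 lower, with the other counts as before.

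Over the 36 sums of 9 cell types in 4 libraries, the gene whose level went most closely with Adipoq was Kng2, a kininogen gene (Pearson r = 0.984 of log2(CPM + 1)), followed by Hp (0.959) and Kng1 (0.958), among 14041 genes at 10 CPM or more in any sum. Lepr went most closely with Cxcl12 (0.976), Vegfc (0.916) and Kng2 (0.915), and Ebf3 with Tmem178 (0.978), Kitl (0.962) and Atxn7l3b (0.958). Lpl went with 1500009L16Rik (0.940), Il34 (0.932) and Gstt1 (0.927), Cebpa with Angpt1 (0.952), P2rx4 (0.918) and Dtnbp1 (0.909), and Ebf1 with Pakap (0.973), Fam13c (0.951) and Il17rd (0.947). The nearest to Foxc1 were Mir100hg (0.968), Gm49317 (0.961) and Rbms3 (0.958), to Pparg Epas1 (0.944), St6galnac2 (0.939) and Itga1 (0.931), and to Cebpb Ubb (0.897), Septin6 (0.847) and Spry2 (0.846). The 36 sums share libraries and depth, and Hp, Cxcl12, Kitl and 1500009L16Rik are gate markers, so these values describe the cell types sampled.

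Summed over all kept barcodes, where fewer cells of a type and less RNA per cell cannot be told apart, Adipoq was at 104 and 112 CPM in the mutants against 200.2 and 191 CPM in the controls, Lepr at 113 and 126 CPM against 331 and 313 CPM and Ebf3 at 140.1 and 157 CPM against 489.8 and 468 CPM, beside the lower share of reticular-like cells. Adipoq was thus a smaller share of the counts over the whole library and a larger share within the summed reticular-like cells. Lpl stood above both controls, with 355 and 390.1 CPM against 332 and 314 CPM, and Cebpb was higher at 202 and 187 CPM against 70.7 and 67.9 CPM.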

How the data were processed

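The libraries were made with a 10x Genomics 3′ kit. Per the study's methods the authors trimmed reads with cutadapt (3.5), aligned them to GRCm39 with GENCODE annotation and counted UMIs over exons and introns with STARsolo (2.7.10a), sharing reads of several genes by expectation maximization. The deposited values are therefore expected counts per gene and barcode, unfiltered. At most 1.41% of the counts of any of the 9 genes in a library came from shared, non-whole entries.

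The 9 genes and all gene lists were chosen with earlier results of these data known. Barcodes with at least 1000 UMIs and 800 genes were kept. A barcode entered a cell group when its mean standardized level of a marker list was at least 0.5, led the next list by 0.25 and rested on 2 detected markers. No doublet caller was run on the deposited matrices. Instead, cells that also reached 0.5 on a second list were left out in an alternative. Sums per library and group were rounded and tested with edgeR (4.0.16, TMM) over genes with a count in at least 20% of cells of either genotype and past edgeR's expression filter. DESeq2 (1.42.0), clustering (scanpy 1.11.5) and thinning served as alternatives. Free RNA was bounded from barcodes of 10 to 100 UMIs. Genes named from each list were up to 4 per group with the largest called change without overlap. Some genes that this rule names are not reported here. The functions of the gene fits were also run on simulated sums with known changes, whose outcome is not reported here and lends no weight to the calls. Gene positions come from a later GENCODE release on the same build. The rule of 20% of cells was the study's own. Its further filters on mitochondrial and hemoglobin share and complexity were not used in the main fits. Neither were its minimum of counts and barcodes per gene and its integration.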

Additional observations from a re-analysis of the deposited data

Results flagged for a closer look

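The interaction test of reticular-like against metaphyseal stromal-like cells called 3 of the 9 genes. Lepr differed by 1.15 on the log2 scale, Ebf3 by 0.47 and Adipoq by 2.10 (edgeR, adjusted p = 5.39e-05, 0.00655 and 1.51e-04). In both cell groups the 2 mutant libraries lay apart from the 2 controls for each of these genes, above them for Adipoq in reticular-like cells and below them elsewhere. Adipoq entered the fit through reticular-like cells alone, since it was under the filter in metaphyseal stromal-like cells. Its difference is therefore a description and lends no support on its own. The call of Ebf3 was lost without control 1 (0.39; edgeR, adjusted p = 0.267), without control 2 (0.53; edgeR, adjusted p = 0.0945), after thinning (0.31; edgeR, adjusted p = 0.128) and with matched clusters (0.20; edgeR, adjusted p = 0.426). Groups of 2 libraries are too small to look for a library apart from its group.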

How the results depend on the processing

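Across the alternatives, 338 values of single genes kept their direction and side of the threshold, 26 lost a call, 6 gained one and 14 turned direction. Replicate numbers did not pair the libraries (correlation of deviations -0.07, -0.006 and -0.04 in reticular-, metaphyseal stromal- and osteoblast-like cells). The replicate block took the calls of Lepr (adjusted p = 0.0718) and Foxc1 (adjusted p = 0.0817) in reticular-like cells (edgeR) and gave 153 lower genes in osteoblast-like cells, against 250. Lepr in reticular-like cells turned to 0.021 with clusters in place of the gate and to 0.017 with matched clusters. Of the differences between both cell groups, these uncalled ones turned direction. Pparg turned to 0.03 without control 2 and 0.52 with matched clusters and ran from -0.24 to 0.10 when 1 library was left out. Cebpb turned to 0.036 without control 1 and 0.011 after thinning and ran from -0.12 to 0.076. Lpl turned to 0.46 with matched clusters and ran from -0.60 without mutant 1 to 0.046 without mutant 2. Ebf1 turned to 0.019 after thinning and ran from -0.21 without mutant 2 to 0.058 without mutant 1. Foxc1 turned to 0.12 after thinning and 0.14 with matched clusters. Calls were gained by Foxc1 in metaphyseal stromal-like cells with clusters (-0.33) and in osteoblast-like cells with a lead of 0.5 (0.44) or no second list (0.53), and by the differences of Lpl without the gene filter (-0.30) or mutant 1 (-0.60) and of Ebf1 without mutant 2 (-0.21). The cause was not tested. Counts of all genes higher and lower were 1107 and 1025 in reticular-like, 889 and 799 in metaphyseal stromal-like and 524 and 250 in osteoblast-like cells, and 341 and 300 for the difference. DESeq2 gave 696 and 564, 503 and 341, and 292 and 93. Without the gene filter, reticular-like cells gave 613 and 682, metaphyseal stromal-like cells 1214 lower, osteoblast-like cells 871 and 746, and the difference 492 lower. Thinned cells gave 438 and 443, 280 and 299, 110 and 69, and 187 and 106. Calls that also reached a log2 size of 1 numbered 56 and 20, 138 and 88, and 83 and 7. Clusters gave 396 and 290 in metaphyseal stromal-like cells, matched clusters (added after the data were seen) 282 and 216 there and 111 and 103 for the difference, and no TMM 126 lower in osteoblast-like cells. Leaving out 1 library gave 719 to 1016 and 647 to 909, 616 to 858 and 527 to 763, 331 to 563 and 103 to 238, and 92 to 444 and 67 to 451. Without thinning, an Adipoq UMI was in 88.5% of mutant and 93.4% of control reticular-like cells, and a Lepr UMI in 87.4% and 99.4% of reticular-like and 32.1% and 63.6% of metaphyseal stromal-like cells. With 2 libraries a genotype, and 161 to 250 mutant cells in the smaller groups, genes under about 20 CPM there rest on few counts.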
